A study of Mus musculus with 96 samples.

Results

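Blood vessels of the pancreatic islet and of the liver were followed through 10 genes of the endothelium, the cell layer that lines vessels. The genes were chosen by name for their known roles, with earlier results of these data known. All 10 were found among the 21990 genes of the deposited expression table, of which 20155 have values. They are the vascular growth factor Vegfa, its receptors Kdr and Flt1, the paired receptor kinases Tie1 and Tek, the junction and adhesion molecules Pecam1, Cdh5 and Esam, the diaphragm protein Plvap, and the Notch ligand Dll4. The animals were male C57BL/6N mice with no engineered allele, bought as 4-week-olds and fed a chow diet (CD, LabDiet 5001, 13.5% fat) or a high-fat diet (HFD, Research Diets D12492, 60% fat). After 4, 8, 12, 16, 20 and 24 weeks of diet, 4 mice per diet were taken, 48 in all, and RNA from islets and from liver of each mouse was sequenced, which gives 96 libraries. The 2 diets come from different makers, so that fat content and the other ingredients cannot be told apart. Islets were freed by collagenase digestion and picked by hand, whereas liver was frozen as a piece of tissue.

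Vegfa is secreted by parenchymal cells, in islets mainly by beta cells, and acts on endothelium through the signaling receptor Kdr, while Flt1 binds the same ligand tightly and holds it away from Kdr. Dll4 is a membrane ligand that endothelial cells present to Notch receptors on their neighbors, a signal that restrains sprouting. Tek is the receptor of the angiopoietins and Tie1 is its partner. Cdh5 is the cadherin of endothelial junctions, Pecam1 and Esam sit at the same cell contacts, and Plvap forms the diaphragms of small openings in the endothelium. Islet capillaries are fenestrated and closed by such diaphragms, whereas the sinusoids of the liver have open fenestrae without them.

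The promoters of Dll4 and Flt1 are shown because these genes were called in opposite directions in islets, and that of Vegfa because it encodes the ligand. Each line gives the 250 bases upstream of the RefSeq start on build GRCm38.p6, read 5′ to 3′ on the strand of the gene.
Dll4, chr2:119325534-119325783, plus strand: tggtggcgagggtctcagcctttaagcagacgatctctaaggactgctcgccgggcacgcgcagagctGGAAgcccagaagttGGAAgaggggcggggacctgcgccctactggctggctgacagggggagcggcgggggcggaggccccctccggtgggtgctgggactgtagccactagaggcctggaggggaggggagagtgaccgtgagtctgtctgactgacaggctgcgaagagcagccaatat
Flt1, chr5:147726012-147726261, minus strand: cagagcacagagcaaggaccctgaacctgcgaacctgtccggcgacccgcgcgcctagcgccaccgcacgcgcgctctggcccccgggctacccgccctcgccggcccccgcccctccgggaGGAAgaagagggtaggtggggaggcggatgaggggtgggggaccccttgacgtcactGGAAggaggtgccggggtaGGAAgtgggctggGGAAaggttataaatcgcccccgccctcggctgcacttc
Vegfa, chr17:46032378-46032627, minus strand: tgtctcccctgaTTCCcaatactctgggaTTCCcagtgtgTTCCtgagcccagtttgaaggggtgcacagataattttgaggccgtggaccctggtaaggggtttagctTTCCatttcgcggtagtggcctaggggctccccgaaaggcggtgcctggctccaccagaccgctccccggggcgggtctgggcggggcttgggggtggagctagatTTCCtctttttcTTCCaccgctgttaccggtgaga
Capitals mark GGAA, the core that transcription factors of the ETS family bind, in either orientation (GGAA or TTCC). It occurs 2 times upstream of Dll4, 4 times upstream of Flt1 and 6 times upstream of Vegfa. These matches are descriptions of letters, since 93.4% of the 32851 promoters of the same length in the RefSeq table hold at least 1 and the median promoter holds 3. The hypoxia core ACGTG (or CACGT) was absent from all 3 sequences and occurs in 16.6% of all promoters. Vegfa has a second RefSeq start in the table, whose upstream bases (chr17:46025164-46025413) held 1 hypoxia core and 2 ETS cores. A promoter sequence was on hand for 6 of the 10 genes, and the upstream bases of Kdr, Tie1 and Tek held 4, 7 and 2 of the ETS cores.

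In the 24 CD mice, all 10 genes were higher in islets than in liver. Levels are given as FPKM (fragments per kilobase of transcript, scaled to library size), a unit per length in which genes can be set beside each other. Vegfa was the highest in islets, with 116 ± 30.1 FPKM (SD, n = 24 mice), followed by Plvap with 80.4 ± 14 FPKM. Kdr followed with 28.4 ± 2.60 FPKM, Flt1 with 18.2 ± 2.61 FPKM, Pecam1 with 14.5 ± 2.49 FPKM and Esam with 13.0 ± 1.47 FPKM. The lowest levels were those of Tie1 (9.08 ± 1.62 FPKM), Cdh5 (6.58 ± 1.02 FPKM), Dll4 (6.45 ± 1.13 FPKM) and Tek (2.83 ± 0.573 FPKM). Neighbors in this order were not all distinct, since Cdh5 exceeded Dll4 in 12 of 24 mice, and Vegfa exceeded Plvap and Pecam1 exceeded Esam in 18 of 24 each.

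In liver of the same mice the order was another one, with Vegfa at 36.9 ± 7.21 FPKM, Plvap at 17.7 ± 6.15 FPKM and Esam at 4.49 ± 1.56 FPKM at the top. Kdr (3.48 ± 1.37 FPKM), Pecam1 (3.28 ± 1.11 FPKM) and Cdh5 (3.07 ± 0.957 FPKM) lay close together, and Kdr exceeded Pecam1 in 16 of 24 mice. Tie1 had 2.59 ± 0.822 FPKM, Tek 1.45 ± 0.434 FPKM and Dll4 0.968 ± 0.410 FPKM. Flt1 came last, with 0.636 ± 0.192 FPKM, although its rank in islets was 4.

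The gap between tissues was widest for Flt1, the receptor that holds Vegfa back. Flt1 was 28.6 times higher in islets than in liver by the ratio of means, and in single mice this ratio ran from 15.6 to 77.1. Kdr followed with a ratio of 8.16, Dll4 with 6.66, Plvap with 4.55 and Pecam1 with 4.42. Tek (1.96) and Cdh5 (2.15) showed the narrowest gaps, and each of the 10 genes was higher in islets in 24 of 24 CD mice. On the log2(FPKM + 1) scale the islet minus liver difference ran from 0.65 ± 0.07 (SE) for Tek to 3.55 ± 0.04 for Flt1, with adjusted p-values of 2.4e-12 or below (limma, Benjamini-Hochberg). Such calls are common between the tissues, where 95.4% of 13074 genes were called and 66.9% were called higher in islets. The median of all genes was 0.66 on this scale, 0.29 after median ratio scaling and 0.95 with the 10 most abundant genes left out of the totals, and all 10 genes were called higher in islets under each of these. Tek lay beside this median, at 0.65, 0.34 and 0.99 under the same 3 scalings, so that whether its gap exceeded the median turned with the scaling. In tissue RNA of this kind, fewer cells of a type and less RNA per cell cannot be told apart.

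**Figure D1:**
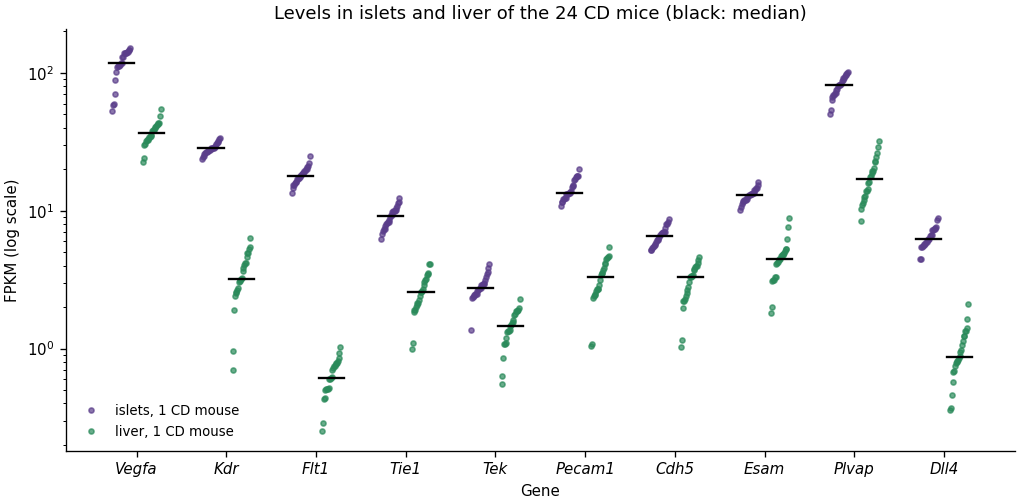
FPKM of the 10 genes on a log axis in islets (purple) and liver (green), 1 point per CD mouse (24 per tissue, all weeks) with the median as a black line. The islet points lie above the liver points without overlap for all genes but Vegfa and Tek, and Flt1 has the widest gap (28.6 times by the ratio of means).

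Markers fitted the labelled tissues. Ins2 had at least 394273 FPKM in every islet library, Alb had at least 16734 FPKM in every liver library, and Stab2 and Clec4g, which mark liver sinusoidal endothelium, had medians of 10.0 and 22.8 FPKM in liver against 0.27 and 0.02 FPKM in islets. Some liver libraries held insulin transcripts, with Ins2 at 0 in 20 of 48 and up to 2467 FPKM in the others. Digestive enzyme transcripts of acinar cells were present in every islet library, and the 14 acinar markers had summed levels from 6713 to 166900 FPKM on CD and from 4499 to 56030 FPKM on HFD. Fits with this acinar level as a covariate are given beside the islet results.

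Dll4, the Notch ligand of endothelial cells, rose in HFD islets from week 12 on. At week 4 the islets of CD mice had 5.72, 5.43, 6.28 and 5.95 FPKM of Dll4, and those of HFD mice had 3.85, 5.42, 3.72 and 5.59 FPKM. At week 8 the values were 6.68, 5.52, 6.70 and 6.15 FPKM on CD and 5.28, 5.49, 6.78 and 5.90 FPKM on HFD. In both weeks the diets overlapped and the change was not called, with log2 differences of -0.29 ± 0.12 (SE, adjusted p = 0.67) and -0.08 ± 0.09 (adjusted p = 0.54) by limma.

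At week 12 the CD mice had 4.48, 6.24, 5.42 and 4.49 FPKM of Dll4 and the HFD mice 8.29, 7.11, 7.24 and 6.10 FPKM. All but the lowest HFD mouse lay above every CD mouse, and the log2 difference was 0.41 ± 0.12 (limma, adjusted p = 0.048). The week 16 values were 5.77, 6.54, 5.62 and 7.25 FPKM on CD against 8.15, 8.78, 8.31 and 7.66 FPKM on HFD, a log2 difference of 0.34 ± 0.08 (adjusted p = 0.017). The groups no longer overlapped, a gap that 6.64% of all genes showed in this direction at week 16.

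Dll4 reached its highest levels late in the feeding period. At week 20 the CD mice had 7.66, 7.19, 8.88 and 8.59 FPKM and the HFD mice 9.26, 13.1, 12.9 and 13.8 FPKM, and at week 24 the values were 7.34, 7.51, 7.42 and 5.95 FPKM against 10.6, 15.7, 13.6 and 10.6 FPKM. Every HFD mouse was above every CD mouse in both weeks. The log2 difference was 0.53 ± 0.11 at week 20 (limma, adjusted p = 0.034) and 0.75 ± 0.12 at week 24 (adjusted p = 0.0013). The ratio of means at week 24 was 1.79.

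Dll4 was called in 4 of 6 weeks in islets, namely weeks 12, 16, 20 and 24, where the shares of all genes called were 4.53%, 8.45%, 4.74% and 8.3%. The mean difference over all 6 weeks was 0.28 ± 0.05 (limma, adjusted p = 1.3e-05). The early minus late difference, weeks 4 to 12 against weeks 16 to 24, was -0.53 ± 0.10 (adjusted p = 0.00035). HFD minus CD was thus larger at late weeks than at early weeks, of which weeks 4 and 8 had negative differences without a call. At week 24 the call of Dll4 was retained in 8 of 8 fits with 1 mouse left out. At week 16 it was retained in 5 of 8 and lost without CD401, CD405 or HFD414 (adjusted p up to 0.058). At week 12 it was retained in 2 of 8 and at week 20 in 1 of 8, with adjusted p-values up to 0.19 and 0.11 and log2 differences no smaller than 0.35 and 0.48. With the acinar level as a covariate, week 24 was still called (0.61, adjusted p = 0.0042), as was the mean over weeks (0.25, adjusted p = 0.00027). Weeks 12 (0.31, adjusted p = 0.34), 16 (0.29, adjusted p = 0.56) and 20 (0.66, adjusted p = 0.095) were not, with standard errors of 0.18, 0.16 and 0.15. In the fits of weeks 12, 16 and 20 with this covariate, 0.842%, 1.01% and 0.889% of all genes were called. The summed acinar markers did not overlap between the diets at weeks 12 and 16. Diet and acinar level could hardly be told apart in the fits of those weeks.

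**Figure D2:**
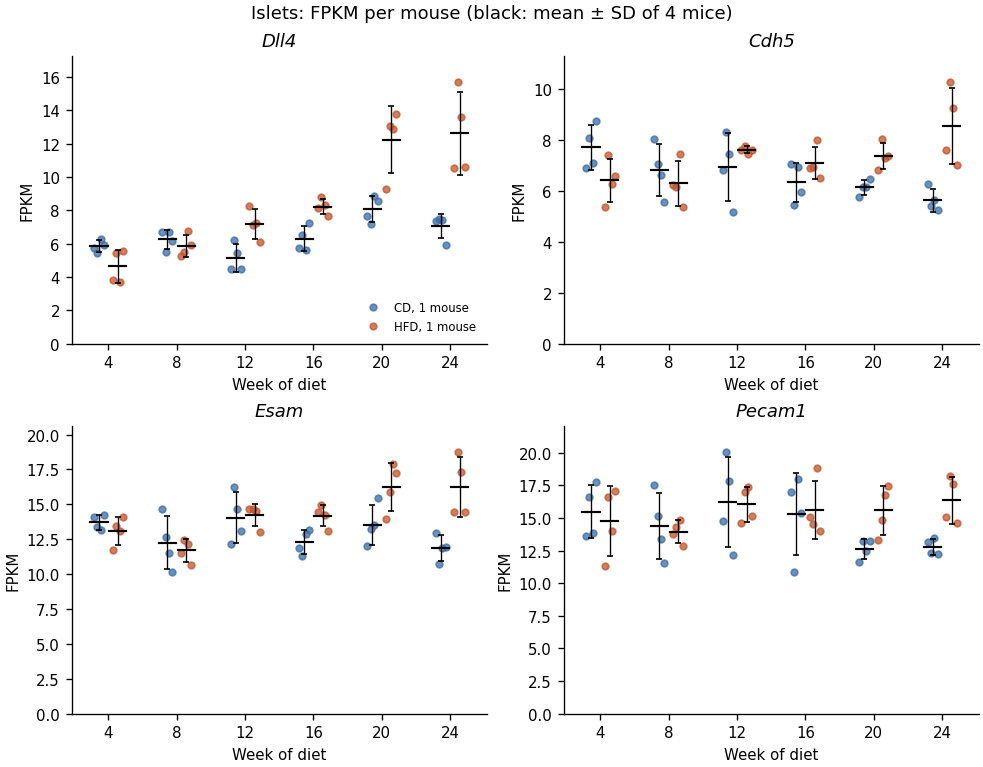
FPKM of Dll4, Cdh5, Esam and Pecam1 in islets against the week of diet, 1 point per mouse (blue CD, orange HFD) with the mean and SD of 4 mice in black. Dll4 of HFD mice lies above CD from week 16 on without overlap, and at week 24 all 4 genes have every HFD mouse above every CD mouse.

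The junction genes Cdh5, Esam and Pecam1 were higher in HFD than in CD islets at week 24. Cdh5, the endothelial cadherin, had 6.24, 5.38, 5.65 and 5.22 FPKM in CD mice and 7.60, 10.3, 9.24 and 7.02 FPKM in HFD mice at this week. Its log2 difference was 0.51 ± 0.11 (limma, adjusted p = 0.0072), which was retained in 8 of 8 fits with 1 mouse left out and with the acinar covariate (0.43, adjusted p = 0.039). Esam, an adhesion molecule of endothelial tight junctions, had 12.9, 10.7, 11.9 and 11.9 FPKM on CD and 14.4, 18.7, 17.3 and 14.5 FPKM on HFD. In both genes the groups did not overlap. The log2 difference of Esam was 0.42 ± 0.10 (limma, adjusted p = 0.014), and the call was lost without CD605 or without HFD614 (adjusted p up to 0.050). Mean Esam was 16.2 FPKM in HFD islets at both week 20 and week 24, and 13.5 and 11.9 FPKM in CD islets.

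Pecam1, the adhesion molecule known as CD31, had 13.2, 12.3, 13.4 and 12.2 FPKM in CD and 15.1, 18.2, 17.6 and 14.6 FPKM in HFD islets at week 24. The difference was 0.33 ± 0.09 (limma, adjusted p = 0.030), and it was called in 3 of 8 fits with 1 mouse left out (adjusted p up to 0.11). Plvap had 82.2, 81.5, 88.5 and 76.0 FPKM on CD and 93.2, 111, 98.7 and 98.1 FPKM on HFD, a log2 difference of 0.28 ± 0.08 (adjusted p = 0.034) called in 2 of 8 such fits (adjusted p up to 0.10). The Plvap call was retained in 1 of 8 other settings, that with a pseudocount of 0.1, and its difference was 0.19 after median ratio scaling (adjusted p = 0.17) and 0.21 with the 10 most abundant genes left out of the totals (adjusted p = 0.15). Both genes also showed no overlap between diets. With the acinar covariate, Esam (0.36, adjusted p = 0.064), Pecam1 (0.27, adjusted p = 0.12) and Plvap (0.22, adjusted p = 0.16) kept the direction without being called. In that fit 4.48% of all genes were called. From week 12 to week 24 the mean of Pecam1 went from 16.0 to 16.4 FPKM on HFD and from 16.2 to 12.8 FPKM on CD.

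At week 24, 5 of the 10 genes were called higher and none lower, where 8.3% of all genes were called and 6.57% were called higher. The groups did not overlap in 5 of 10 genes with HFD above, which was the case for 13.7% of all genes. The median difference of the 10 genes was 0.26, against 0.08 over all genes tested. Kdr, Flt1, Tie1, Tek and Vegfa were not called at this week. Of these, Flt1 was the most uneven, with 18.5, 17.2, 15.5 and 17.5 FPKM on CD and 13.0, 26.6, 26.1 and 18.3 FPKM on HFD, so that HFD mice were both the lowest and the highest.

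At week 20 the HFD mice were above the CD mice without overlap in Cdh5 and Pecam1 too, a gap that 4.84% of all genes showed. Cdh5 had 5.74, 6.15, 6.13 and 6.47 FPKM on CD and 6.81, 8.02, 7.26 and 7.34 FPKM on HFD, and Pecam1 had 11.6, 13.3, 12.5 and 13.2 FPKM against 13.3, 14.8, 16.7 and 17.5 FPKM. Neither was called (limma, adjusted p = 0.070 for Cdh5 and 0.086 for Pecam1).

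Earlier weeks showed less. At week 4 all 10 log2 differences were negative in islets, from -0.29 for Dll4 to -0.07 for Esam, and none was called (limma, adjusted p between 0.67 and 0.89), 3 with an unadjusted p under 0.05. At that week 0 of 11569 genes were called, 854 with an unadjusted p under 0.05. Week 8, where 5.27% of all genes were called, gave no call among the 10 genes either, 1 with an unadjusted p under 0.05. Cdh5 changed its place over time, from 6.89, 8.08, 7.07 and 8.72 FPKM on CD and 5.36, 7.41, 6.27 and 6.59 FPKM on HFD at week 4 to the reverse order at week 24. Its early minus late difference was -0.36 ± 0.09 (limma, adjusted p = 0.011), and that of Esam was -0.32 ± 0.07 (adjusted p = 0.0083). With Dll4, 3 of 10 genes were called in this contrast, where 3.16% of all genes were, and each of the 3 calls was retained in 48 of 48 fits with 1 mouse left out.

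Cdh5 also changed with the weeks in CD mice. In CD islets it fell by 0.017 ± 0.0047 per week on the log2 scale (limma, adjusted p = 0.037), from a mean of 7.69 FPKM at week 4 to 5.62 FPKM at week 24. It was the only one of the 10 genes called for a trend over weeks on CD, where 4.27% of all genes were called, and the call was retained in 17 of 24 fits with 1 mouse left out (adjusted p up to 0.083). After scaling libraries by median ratios, where 10.2% of all genes were called, Cdh5 (-0.02), Tie1 (-0.018) and Dll4 (0.014) were called. Mouse age, time on the diet and any processing by week cannot be told apart in such a trend.

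Flt1 moved the other way. At week 16 the CD islets had 20.0, 18.9, 20.2 and 22.1 FPKM and the HFD islets 17.1, 16.9, 17.2 and 16.0 FPKM, with no overlap and a log2 difference of -0.26 ± 0.06 (limma, adjusted p = 0.023). The call was lost without CD401, CD405, CD407 or HFD414 (adjusted p up to 0.063). It was not retained with the acinar covariate (-0.29 ± 0.125, limma, adjusted p = 0.41), where 1.01% of all genes were called. The acinar markers of week 16 summed to 37830 to 69830 FPKM on CD and 6292 to 20280 FPKM on HFD, without overlap. Diet and acinar level could therefore hardly be told apart in this fit. At week 12 the Flt1 values were 13.5, 15.4, 17.7 and 14.6 FPKM on CD and 13.0, 11.0, 13.0 and 13.4 FPKM on HFD. The HFD mice were again all lower, a gap in this direction that 3.47% of all genes showed at week 12 and 8.77% at week 16, without a call at week 12 (-0.26 ± 0.11, adjusted p = 0.20).

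Over the 6 weeks, 6 of the 10 genes were called in islets, where 38.6% of all genes were, 16.6% higher and 22.0% lower. The genes called higher on HFD were Dll4, Esam (0.13 ± 0.04, adjusted p = 0.0061), Cdh5 (0.11 ± 0.04, adjusted p = 0.034) and Plvap (0.10 ± 0.04, adjusted p = 0.041) by limma. The genes called lower were the Vegfa receptors Flt1 (-0.15 ± 0.06, adjusted p = 0.034) and Kdr (-0.11 ± 0.04, adjusted p = 0.033). At week 24 alone the differences of Flt1 (0.22) and Kdr (0.23) were positive, without a call. Pecam1 (0.09), Tie1 (0.04), Tek (-0.01) and Vegfa (-0.07) were not called. Leaving out 1 mouse kept the calls of Dll4 and Esam in 48 of 48 fits, of Kdr and Cdh5 in 41, of Flt1 in 40 and of Plvap in 31. Kdr was not called with the 10 most abundant genes left out of the totals (limma, adjusted p = 0.05 after rounding), nor Plvap without the filter. With the acinar covariate, where 33.5% of all genes were called, only Dll4, Esam and Kdr of the 6 were. Flt1 (-0.15, adjusted p = 0.054) and Cdh5 (0.11, adjusted p = 0.084) then had differences of about the same size as before, and Plvap a smaller one (0.08, adjusted p = 0.19).

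Because endothelial genes can rise together, a further fit, chosen after the data had been seen, took the mean log2(FPKM + 1) of Pecam1, Cdh5, Tie1 and Esam as a covariate. At an equal level of these 4 genes, Dll4 was higher in HFD islets over the 6 weeks by 0.22 ± 0.05 (limma, adjusted p = 0.0002), while Kdr (-0.17 ± 0.04, adjusted p = 0.00085) and Flt1 (-0.20 ± 0.06, adjusted p = 0.0049) were lower. Plvap was no longer called (0.03 ± 0.03, adjusted p = 0.46). Over all genes tested, 39.3% were called with this covariate, 11.6% higher and 27.7% lower. At week 24 alone, Dll4 had a difference of 0.30 ± 0.17 in this fit (adjusted p = 0.41), where 0.478% of all genes were called.

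Vegfa itself differed between weeks more than between diets. In islets of weeks 4, 8, 16, 20 and 24 it ranged from 79.6 to 172 FPKM over 40 libraries, with a median of 124 FPKM. At week 12 the CD islets had 52.6, 70.1, 59.3 and 59.0 FPKM and the HFD islets 55.3, 51.2, 64.4 and 60.5 FPKM. All 8 libraries of this week thus lay below all 40 others, on both diets, a pattern that 3.26% of all genes tested showed and that was picked out after the values were seen. None of the other 9 genes had it. In liver, Vegfa at week 12 (28.7 to 41.5 FPKM) lay within the range of the other weeks (22.4 to 54.6 FPKM).

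Other features of the week 12 islets can be set beside this dip. The acinar markers summed to between 69050 and 166900 FPKM in the CD islets of week 12, the highest range of any CD group, and to between 10890 and 51360 FPKM in HFD islets, which were as low in Vegfa. Of the 10 hypoxia targets listed, none had week 12 wholly below the other weeks. Their part in the level of Vegfa was not tested. A week also stands for mouse age, time on the diet and any processing shared by its libraries, which cannot be told apart. Between the diets, Vegfa was called in no week, with log2 differences from -0.26 at week 8 to 0.20 at week 24.

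**Figure D3:**
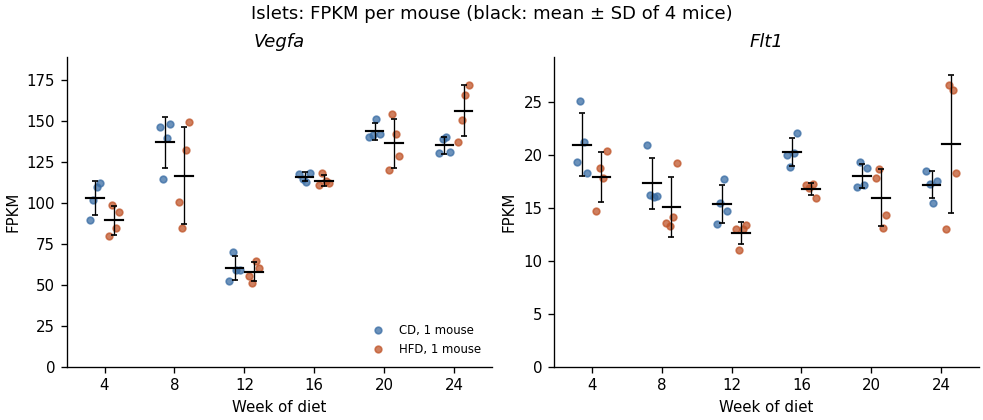
FPKM of Vegfa and Flt1 in islets against the week of diet, 1 point per mouse (blue CD, orange HFD) with the mean and SD of 4 mice in black. Vegfa at week 12 lies between 51.2 and 70.1 FPKM on both diets, below all other weeks, and Flt1 of HFD mice lies below CD without overlap at weeks 12 and 16.

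In liver, Plvap, the diaphragm protein, was higher in HFD mice. At week 12 the CD livers had 12.7, 17.8, 13.96 and 19.6 FPKM and the HFD livers 25.1, 35.4, 22.2 and 25.6 FPKM, and at week 16 the values were 12.7, 11.3, 11.0 and 13.8 FPKM against 15.7, 28.3, 30.0 and 28.6 FPKM. Every HFD mouse lay above every CD mouse in both weeks, which 14.6% of all genes showed at week 12 and 11.9% at week 16. The log2 difference was 0.72 ± 0.17 at week 12 (limma, adjusted p = 0.029) and 0.97 ± 0.19 at week 16 (adjusted p = 0.016). These were the 2 calls among the 10 genes in liver over all weeks, where 10.6% of all genes were called at week 12 (9.42% higher) and 7.43% at week 16 (6.74% higher). None of the 9 genes tested was called by limma at weeks 4, 8, 20 and 24, where 0.0506%, 7.49%, 2.47% and 0.837% of all genes were, and 5, 3, 1 and 0 of the 9 had an unadjusted p under 0.05. Week 12 was not called without CD307, HFD315 or HFD318 (adjusted p up to 0.092), nor week 16 without HFD414 or HFD418 (up to 0.058). The week 12 call was also lost without the filter, after median ratio scaling (0.61) and with all 12 groups in 1 fit, with adjusted p-values of 0.052, 0.052 and 0.074.

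In the other weeks the diets overlapped for liver Plvap. At week 4 it had 8.47, 22.5, 28.9 and 10.3 FPKM on CD and 30.6, 25.5, 28.9 and 24.1 FPKM on HFD. At week 8 it had 17.6, 14.3, 20.3 and 12.1 FPKM on CD and 23.0, 28.0, 22.2 and 17.5 FPKM on HFD, and at week 20 it had 15.9, 19.6, 26.2 and 32.0 FPKM against 35.3, 37.9, 33.7 and 21.9 FPKM. At week 24 the HFD mice were far apart, with 16.5, 20.7, 29.7 and 50.9 FPKM, while the CD mice had 24.7, 22.9, 18.8 and 16.2 FPKM. The mean of HFD exceeded that of CD in all 6 weeks. Over the 6 weeks the difference was 0.63 ± 0.11 (limma, adjusted p = 2.8e-05), retained in 48 of 48 fits with 1 mouse left out. At an equal level of Pecam1, Cdh5, Tie1 and Esam it was 0.51 ± 0.07 (adjusted p = 2.5e-07), in a fit that called 45.4% of all genes.

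Of the 10 genes, 3 were called higher over the 6 weeks in liver and none lower, where 42.6% of all genes were called and 35.8% were called higher. Besides Plvap these were Dll4 (0.18 ± 0.07, limma, adjusted p = 0.042) and Flt1 (0.13 ± 0.05, adjusted p = 0.030), both near or below 1 FPKM. The call of Dll4 was retained in 22 of 48 fits with 1 mouse left out (adjusted p up to 0.070), and that of Flt1 was lost without CD208 or HFD511 (up to 0.056). The libraries of the CD mice CD101 and CD106 stood apart at week 4. Their Pecam1 was 1.04 and 1.07 FPKM, against 4.15 and 4.61 FPKM in the other CD mice of that week, and Kdr was 0.70 and 0.96 FPKM against 3.02 and 3.67 FPKM. The same 2 livers were the lowest of their group in all 9 genes other than Vegfa. Without them, in a fit added after the values were seen, Plvap was still called over the 6 weeks (0.52 ± 0.10, adjusted p = 9.3e-05), whereas Flt1 (0.09, adjusted p = 0.099) and Dll4 (0.13, adjusted p = 0.14) were not.

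Neither the early minus late difference nor the trend over weeks on CD was called for any of the 10 genes in liver by limma, and none had an unadjusted p under 0.05, where 0.175% and 14.9% of all genes were called. Flt1 was under the filter for the trend. In liver of HFD mice at week 4, Flt1 had 0.99, 0.80, 1.08 and 1.04 FPKM, above the 0.25, 0.60, 0.72 and 0.29 FPKM of CD mice without overlap. The values of 0.25 and 0.29 FPKM are those of CD101 and CD106. Such a gap was shown by 5.85% of the genes that passed the filter at week 4, which liver Flt1 did not.

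Kdr was called lower in HFD liver once the level of 4 other endothelial genes was taken into account. Over the 6 weeks its plain difference was -0.08 ± 0.10 (limma, adjusted p = 0.56), and at an equal level of Pecam1, Cdh5, Tie1 and Esam it was -0.20 ± 0.04 (adjusted p = 0.00014). In the same fit Plvap (0.51, adjusted p = 2.5e-07) and Flt1 (0.08 ± 0.03, adjusted p = 0.032) were called higher. It called 45.4% of all genes, 37.2% higher and 8.21% lower. The CD livers had 4.97, 4.17, 5.28 and 2.68 FPKM of Kdr at week 8 and the HFD livers 2.47, 2.80, 2.35 and 2.94 FPKM. The lowest CD mouse lay within the HFD range, and the week 8 difference was not called (-0.51 ± 0.16, adjusted p = 0.095). Vegfa at week 8 had 48.8, 39.5, 54.6 and 43.1 FPKM on CD and 31.0, 32.1, 38.3 and 36.7 FPKM on HFD, with no overlap and without a call (-0.41 ± 0.11, adjusted p = 0.063), where 3.69% of all genes had HFD wholly below CD.

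**Figure D4:**
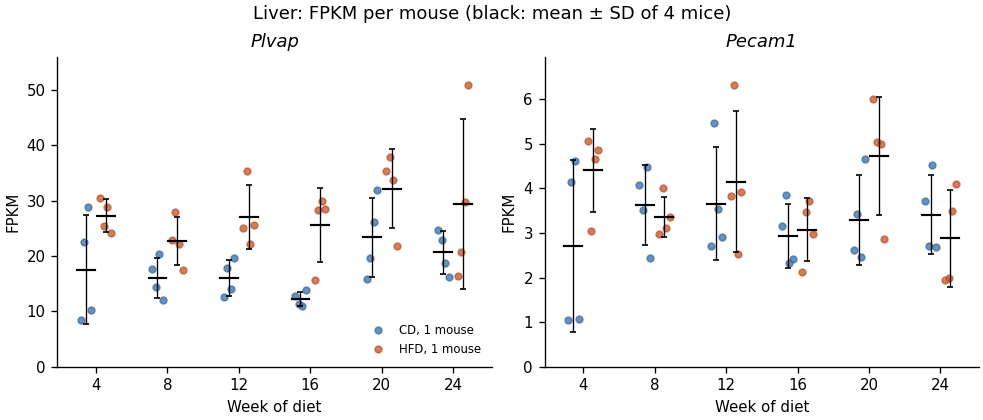
FPKM of Plvap and Pecam1 in liver against the week of diet, 1 point per mouse (blue CD, orange HFD) with the mean and SD of 4 mice in black. Plvap of HFD mice lies above CD without overlap at weeks 12 and 16, Pecam1 overlaps in every week, and the 2 low CD mice of week 4 are seen in both genes.

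Markers of other liver cells moved with Plvap. Of 11 pericyte and stellate cell markers, 10 were tested in liver over the 6 weeks and 9 were called higher on HFD (median 0.54, against 0.08 for all genes tested), and of 9 macrophage markers 6 were called higher (median 0.48). In this contrast 42.6% of all genes were called and 35.8% were called higher. The pericyte and stellate markers had summed levels from 47.2 to 83.3 FPKM on CD and from 92.7 to 142.5 FPKM on HFD at week 12, and to 65.4 to 77.0 and 110.7 to 158.3 FPKM at week 16. Macrophage markers summed to 41.2 to 60.2 FPKM on CD and 75.1 to 177.4 FPKM on HFD at week 12, and to 37.0 to 58.8 and 57.7 to 104.9 FPKM at week 16. Their part in the Plvap difference was not tested. Among the 12 markers of liver sinusoidal endothelium, 11 were tested over the 6 weeks, where 42.6% of all genes were called. Lyve1 was called higher and Bmp2 lower, and the median difference was 0.09.

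The 2 tissues were then compared for the size of the diet effect, as HFD minus CD in islets less the same in liver, over all weeks. Plvap differed by -0.53 ± 0.12 (limma, adjusted p = 0.00039) and Flt1 by -0.27 ± 0.07 (adjusted p = 0.002). Plvap was thus higher on HFD by more in liver (0.63) than in islets (0.10), and Flt1 was lower on HFD in islets (-0.15) and higher in liver (0.13). The other 8 genes of the 10 were not called, where 43.9% of all genes were, and both calls were retained in 48 of 48 fits with 1 mouse left out. Without the livers of CD101 and CD106, Esam was called too (0.22, adjusted p = 0.042). With the mouse as a block, since islets and liver came from the same animals, the same number was called.

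**Figure D5:**
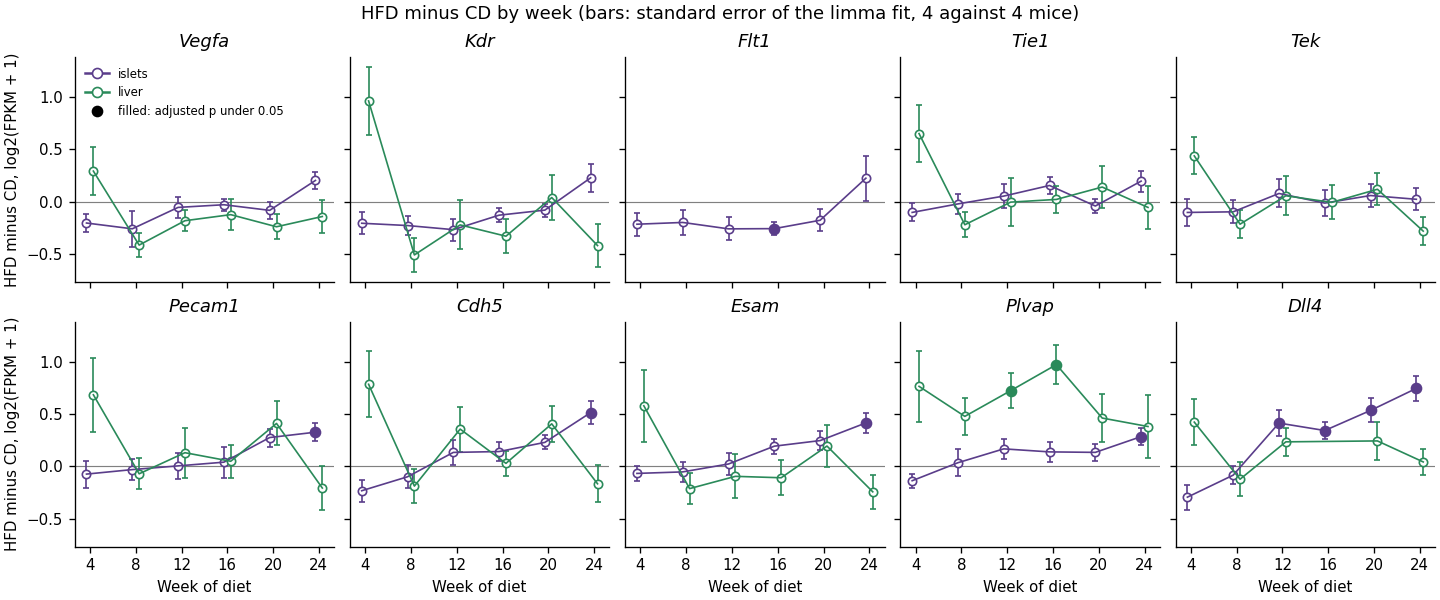
HFD minus CD on the log2(FPKM + 1) scale for each gene and week in islets (purple) and liver (green), with the standard error of the limma fit on 4 against 4 mice. Filled points passed an adjusted p of 0.05, which were Dll4 at 4 weeks, Flt1 at week 16 and 5 genes at week 24 in islets, and Plvap at weeks 12 and 16 in liver. Points are missing where a gene was under the filter (liver Flt1 in all weeks and liver Dll4 at week 16).

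Mice of one group differed from each other in a shared way, and more so in liver. With each value taken relative to its own group of 4 mice, the 9 genes other than Vegfa had pairwise Pearson correlations over the 48 livers between 0.60 and 0.95, with a median of 0.82 over 36 pairs. In islets the same pairs ranged from 0.05 to 0.87 with a median of 0.50, and the highest was that of Kdr and Flt1. These values are descriptions, because all genes of a library share its tissue piece and depth. Within groups, the pooled SD of Pecam1 on the log2 scale was 0.38 in liver and 0.19 in islets, and that of Plvap was 0.41 and 0.15. Vegfa went apart from the others, with a correlation to their mean of 0.28 in islets and -0.19 in liver. The mean of the 9 genes in islets and in liver of the same mouse correlated at 0.18 over 48 mice.

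The genes most like the 9 in their variation between mice were sought among all genes with a mean of at least 1 FPKM. In liver these were Oit3 (r = 0.95), Gpihbp1 (0.95), Mmrn2 (0.95), Flt4 (0.94), Cd300lg (0.94), Pde2a (0.94), Tinagl1 (0.94), Eng (0.93), Dnase1l3 (0.93) and Ltbp4 (0.93) out of 10073 genes. In islets they were Lamb2 (0.90), Ptrf (0.89), Arap3 (0.88), Mmrn2 (0.86), Pdgfrb (0.86), Notch3 (0.86), Nid1 (0.85), Mylk (0.84), Flna (0.83) and Tgfbr2 (0.82) out of 11633. Mmrn2 was in both. Nearest to Vegfa in islets were Isl1 (0.74), Agbl5 (0.73), Rhot2 (0.72), Ankrd10 (0.72) and Tor3a (0.71), and in liver Luc7l2, Pnisr, Ogt, Clk4 and Son (0.84 to 0.85).

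Lists of related genes were read beside the 10 in islets at week 24. Of 9 genes of the Notch axis, 5 were called higher and none lower, with a median difference of 0.34. Over all genes tested at this week, 6.57% were called higher and 1.73% lower, with a median of 0.08, which also stands beside the lists that follow. The 5 Notch genes called were the targets Hey1 (0.60 ± 0.11, limma, adjusted p = 0.0021), Hey2 (0.48 ± 0.10, adjusted p = 0.0072) and Heyl (0.44 ± 0.11, adjusted p = 0.022), the ligand Jag1 (0.34 ± 0.10, adjusted p = 0.048) and the receptor Notch4 (0.53 ± 0.12, adjusted p = 0.012). The 9 Notch genes were not higher in sum in every week in which Dll4 was called. Their summed levels were 25.06 to 30.52 FPKM on CD and 25.2 to 26.67 FPKM on HFD at week 12. At week 16 they were 26.57 to 31.79 and 24.84 to 26.07 FPKM, with HFD wholly below CD. Week 20 had 34.94 to 39.82 and 34.3 to 36.56 FPKM, and week 24 had 28.58 to 32.44 and 31.86 to 38.66 FPKM. In the angiopoietin list at week 24, 2 of 4 genes were tested and the Tek ligand Angpt2 was called higher (0.46 ± 0.13, adjusted p = 0.038), with a median of 0.43 over both. Of 7 further Vegf ligands and receptors, 6 were tested, and the ligand Pgf (0.45 ± 0.09, adjusted p = 0.0045) and the co-receptor Nrp1 (0.51 ± 0.12, adjusted p = 0.016) were called higher, with a median of 0.28 over the 6.

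Other endothelial genes split in the same islets. Of 15 surface and junction genes, 13 were tested and 4 were called higher, namely Jam2 (0.72 ± 0.10, limma, adjusted p = 0.00022), Robo4 (0.62 ± 0.10, adjusted p = 0.0012), Mmrn2 (0.59 ± 0.11, adjusted p = 0.0033) and Gpihbp1 (0.56 ± 0.11, adjusted p = 0.0068), with a median of 0.17. Of 11 endothelial transcription factors, 7 were tested, and Sox18 was called higher (0.63 ± 0.12, adjusted p = 0.0041) and Hhex lower (-1.65 ± 0.18, adjusted p = 0.00031). Hhex is also a delta cell gene, and all 6 alpha and delta cell markers, Hhex among them, were called lower at this week. Of 10 hypoxia targets, 7 were tested and none was called.

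Some genes of pericytes, the contractile cells that wrap capillaries, were called at week 24 as well. Of 11 pericyte and stellate markers, 9 were tested and 4 were called higher in HFD islets, with a median of 0.49 over the 9 (6.57% and 0.08 for all genes), namely Pdgfrb (0.81 ± 0.13, limma, adjusted p = 0.0017), Col3a1 (0.74 ± 0.18, adjusted p = 0.032), Rgs5 (0.70 ± 0.12, adjusted p = 0.0034) and Cspg4 (0.49 ± 0.12, adjusted p = 0.017). The 11 markers had summed levels from 47.8 to 50.0 FPKM on CD and from 60.4 to 97.7 FPKM on HFD. The sum of the acinar markers was 28140 to 74960 FPKM on CD and 18480 to 37540 FPKM on HFD, and that of the alpha and delta cell markers 9494 to 16060 FPKM on CD and 1537 to 2974 FPKM on HFD. Red cell markers had a median difference of 0.51, with 0 of 5 called. The part of these lists in the late HFD minus CD differences of Dll4, Cdh5 and Esam was not tested beyond the acinar covariate.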

How the data were processed

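Poly(A) RNA of islets and liver of 48 mice was sequenced on the BGISEQ-500. The authors deposited 1 table of FPKM per gene and library, given to 2 decimals, and the submitters' processing notes name HISAT2 2.0.4, Bowtie2 2.2.5, RSEM 1.1.12 and the build GRCm38.p5. Read counts were not used here, so the depth per library is unknown, no counting error can be given, and whether counting used strand is not given in the sources used here. Between 11059 and 11941 genes reached 1 FPKM in islets and between 9347 and 10570 in liver. With FPKM weighted by transcript length, the 10 most abundant genes took 29.9 to 46.3% of the total in islets, so that FPKM values there depend on a few genes. The table also holds the authors' group averages, log2 ratios, p- and q-values and cluster labels, which were not used.

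Values were transformed to log2(FPKM + 1), so changes of low genes are understated. A gene entered a fit if 4 or more of its libraries had 1 FPKM or more, and was tested with limma 3.58.1 (trend and robust variances, R 4.3.3), with Benjamini-Hochberg adjustment over all genes tested and a threshold of 0.05. Each week was fitted on its 8 libraries. The mean over weeks and the early minus late difference came from a fit of the 12 groups of a tissue, the trend over weeks from the 24 CD libraries, and the tissue contrasts from both tissues. The scripts were tested on simulated data. The 10 genes and the gene lists were chosen with earlier results of these data known. All 10 genes are named, with the list genes that were called, the 10 genes most like the 9 endothelial genes and the 5 most like Vegfa. Alternatives were the pseudocount (0.1), no filter, 2 scalings, plain variances, 1 fit for all groups, a log2 change of at least 1, an acinar covariate, each mouse left out and the mouse as a block. An endothelial covariate, omission of 2 livers and further omissions of single mice were chosen after seeing the data. Islets and liver are paired by animal, and over 9024 genes their deviations from the group means correlated at -0.133 to 0.334 in single mice (median 0.183).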

Additional observations from a re-analysis of the deposited data

Results flagged for a closer look

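In 15 of 240 groups of 4 mice, 1 mouse lay far from the others by Dixon's criterion, where chance flags about 1 in 20 groups. In islets these were Kdr in HFD112 at week 4 (20.09 FPKM, next 26.86), Flt1 in CD203 (20.93, next 16.19) and HFD217 (19.24, next 14.08) at week 8, Tek in CD308 (1.36, next 2.67) and Esam in HFD318 (13.04, next 14.51) at week 12. Later islet cases were Plvap in CD403 at week 16 (50.5 FPKM, next 69.47), Vegfa in CD505 at week 20 (151.35, next 141.95), and Dll4 (5.95, next 7.34) and Tek (2.33, next 2.9) in CD608 at week 24. In liver, HFD113 was low at week 4 in Cdh5 (3.21 FPKM, next 4.85) and Kdr (3.26, next 4.81), and HFD315 was high at week 12 in Cdh5 (6.85, next 3.5) and Flt1 (0.98, next 0.73). Tek in liver of CD208 at week 8 (1.33 FPKM, next 1.86) and Plvap in liver of HFD411 at week 16 (15.67, next 28.26) were low.

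The diet effect differed between tissues for Flt1 (-0.27) and Plvap (-0.53), as islets minus liver on the log2 scale, and between early and late weeks in islets for Cdh5 (-0.36), Dll4 (-0.53) and Esam (-0.32).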

How the results depend on the processing

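No called value changed sign under any alternative run. Of the 9 calls within single weeks in islets, 5 were made with all 12 groups in 1 fit, 2 with the acinar covariate, 0 with a log2 change of at least 1, and 2 with the endothelial covariate, which covers 6 of the genes. At weeks 12, 16, 20 and 24 the main fits called 4.53%, 8.45%, 4.74% and 8.3% of all genes. All 12 groups in 1 fit called 9.85%, 7.76%, 9.7% and 13.1%, and the acinar covariate 0.842%, 1.01%, 0.889% and 4.48%. A log2 change of at least 1 left 0.346%, 0.967%, 0.547% and 0.734%, and the endothelial covariate 3.55%, 6.39%, 0.128% and 0.478%. The 6 islet calls over all weeks became 3 with the acinar covariate (33.5% of all genes called, against 38.6%). The 1 trend over weeks on CD became 3 after median ratio scaling (10.2%, against 4.27%). In liver, the 2 weekly calls became 1 without the filter and 4 with all 12 groups in 1 fit (Plvap at week 16, Kdr at week 4 and Flt1 at weeks 4 and 20, but not Plvap at week 12), and 0 with a log2 change of at least 1, and the 3 calls over all weeks became 1 without CD101 and CD106. With all 12 groups in 1 fit, 1.03%, 14.9%, 9.36% and 9.23% of all liver genes were called at weeks 4, 12, 16 and 20. With each mouse left out in turn, the counts ranged from 6 to 12 for islet weeks, from 3 to 6 for the islet mean (3 without HFD212), from 3 to 4 for early against late, from 0 to 1 for the islet trend, from 1 to 3 for liver weeks and from 1 to 4 for the liver mean. With the mouse as a replicate block, 10 genes were called between tissues and 2 for the difference in diet effect, as without it. With 4 mice per group and unknown depth, differences in genes near 1 FPKM, such as liver Flt1 and Dll4, could not be measured closely.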
